A study of Homo sapiens with 3 samples.

Results

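Intermediate filament genes were examined in unstressed HEK-293T cells on 3 arrays. The set comprised keratin genes with a numbered KRT symbol and a probe set on the array listed for no gene outside the set. It also held the neuronal filament genes NEFL, NEFM, NEFH, INA and PRPH. The nuclear lamin genes LMNA, LMNB1 and LMNB2 and the genes VIM, DES, GFAP, NES and SYNM completed it. Members were chosen by platform gene symbol alone. No measured value entered this rule, although earlier results of these data were known when it was set. A probe set listed for any other gene as well was left out. This gave 83 probe sets of 57 genes, from 54675 probe sets and 19775 genes on the array, and 44 of the 57 genes were keratins. The keratins of the set are not the whole family. The gene annotation lists 27 keratin genes on chromosome 12, of which 21 are members, and 28 on chromosome 17, of which 23 are members.

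Intermediate filaments are built from rod-shaped proteins that pair into coiled coils and assemble into ropes. Keratins are the filaments of epithelia and assemble only as pairs of an acidic (type I) and a basic (type II) chain, with KRT8 and KRT18 as the pair typical of simple epithelia, including kidney tubules. Neurofilaments are known from neurons but have also been described in lines derived from HEK293. VIM forms the filaments of mesenchymal and many cultured cells, and the lamins line the inner face of the nuclear envelope.

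Each array held total RNA of 1 culture of HEK-293T, a human embryonic kidney line that, according to the labels, carries an inserted gene for a temperature-sensitive SV40 T-antigen. All cultures were untreated and grown in DMEM with 10% heat-inactivated FBS. Harvest was 48 h after seeding 375000 cells (low-seeded 48 h culture), 24 h after seeding 1000000 cells (24 h culture) and 48 h after seeding 750000 cells (high-seeded 48 h culture). Each series of 3 signals is given in this order. There were no stressed or control arrays. Nothing in the labels says whether the cultures came from separate passages, so the spread between arrays may be partly technical.

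The values were MAS5 signals, an intensity on a linear scale. A background level was taken on each array from 283 reference probe sets, which measure chemosensory receptors and genes restricted to other tissues. Its 95th percentile, the threshold, came to 89.99, 84.4 and 104.1 on the 3 arrays. Probe sets with signals over this threshold on every array were counted as above background, and so was any gene with at least 1 such probe set. Signals of different probe sets depend on their probes and were set only against the threshold, not against each other. In bulk RNA, a low signal from every cell and a high signal from few cells cannot be told apart. Of 11 measured kidney markers 2 were above background (18.2%, against 52.6% of all genes) and 9 were not. These 2 were LRP2, an endocytic receptor of the proximal tubule, and PAX8, a renal transcription factor. The call of LRP2 was lost with the 99th percentile as the threshold.

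Fewer intermediate filament genes were above background than genes of the array in general, and the classes differed widely. In all, 13 of the 57 genes (22.8%) were above background, against 52.6% of all genes. Of the 83 probe sets it was 20 (24.1%), against 39.4% of all probe sets, which include those listed for no gene or several. A gene with more probe sets has more chances to pass, and this was not adjusted for. All 3 lamin genes and 3 of 5 neuronal filament genes were above background. Of the keratin genes it was 5 of 44 (11.4%). VIM and SYNM were above background while DES, GFAP and NES were not. These shares describe the lists and were not tested against the rest of the array.

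**Figure D1:**
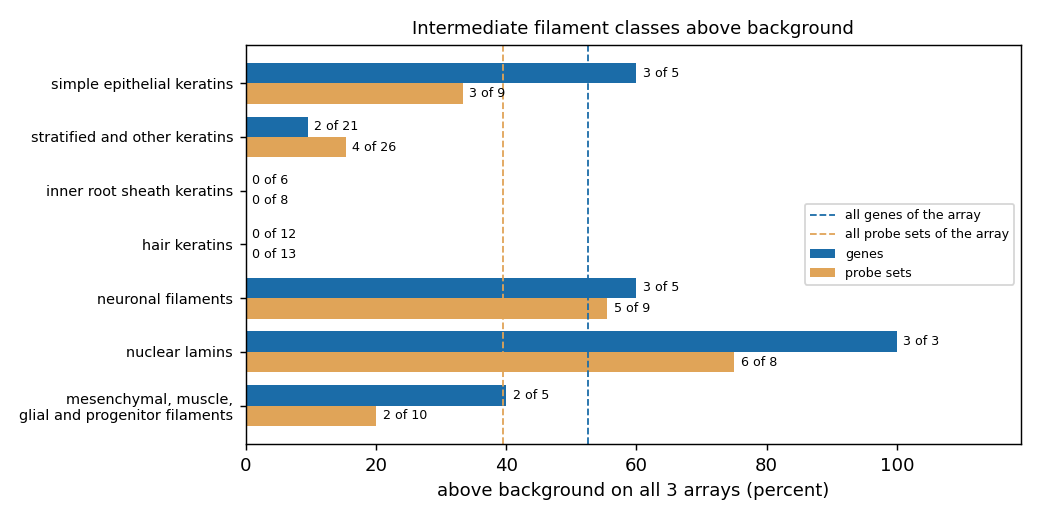
Share of genes (blue) and of probe sets (orange) above background on all 3 arrays in each class of intermediate filament, in percent, with counts beside the bars; dashed lines give the shares over the whole array (52.6% of genes and 39.4% of probe sets). Lamins reach 100%, neuronal filaments and simple epithelial keratins 60% of genes, and hair and inner root sheath keratins 0%.

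Among the neuronal filaments, NEFM, NEFL and INA were well above background and NEFH was not. NEFM, the medium neurofilament subunit, gave 5466, 5850 and 5502 on probe set 205113_at, a mean of 5606 ± 212 (SD, n = 3 arrays). These values were at least 52.9 times the threshold of their array, and the cultures differed by little. The second probe set of NEFM, 223902_at, gave only 4.08, 5.21 and 9.37, so the probe sets of this gene disagreed, and NEFM was not above background where most probe sets of a gene had to be.

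NEFL, the light subunit on which neurofilaments are built, passed the threshold everywhere, with each of its 3 probe sets. The probe set 221916_at gave 2105, 2029 and 2094, and 221805_at gave 1810, 1983 and 1754. The remaining one, 221801_x_at, gave 457.4, 418.8 and 256.6, lowest in the high-seeded 48 h culture. INA, the gene of alpha-internexin, a filament of developing neurons, gave 1205, 1096 and 981.0 on its single probe set, at least 9.42 times the threshold.

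PRPH, the gene of peripherin of the peripheral nervous system, lay across the threshold. It gave 163.5, 173.2 and 99.4, above the threshold in the low-seeded 48 h and the 24 h culture and just below it, at 0.95 times, in the high-seeded 48 h culture. PRPH was therefore not counted as above background, and without the high-seeded 48 h array 4 of 5 neuronal filament genes were. NEFH, the heavy neurofilament subunit, gave 135.0, 12.4 and 27.6 on 1 probe set and 12.5, 40.7 and 26.9 on the other. Only the low-seeded 48 h array exceeded its threshold, and only on the first of these, so NEFH was not counted as above background. A missed call does not show that its transcript was absent.

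All 3 lamin genes were above background. LMNB1, a B-type lamin, gave 1201, 1518 and 1649, and LMNB2, the other B-type lamin, gave 1609, 1438 and 1402. The order of the cultures was opposite on these probe sets, with LMNB1 lowest and LMNB2 highest in the low-seeded 48 h culture. LMNA, which encodes the A-type lamins A and C, passed on 4 of 6 probe sets, whose means ran from 259.2 ± 30.1 to 535.4 ± 110.6 (SD, n = 3 arrays). The probe set 212089_at gave 58.1, 132.6 and 171.3 and failed only in the low-seeded 48 h culture. The probe set 244225_x_at gave 77.6, 77.1 and 49.7 and failed on every array. The 4 probe sets above background are all of the kinds marked _s_at or _x_at, which can share sequence with other transcripts, and the call of LMNA was lost when such probe sets were left out.

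VIM, the gene of vimentin, gave 12855, 14203 and 12975 on probe set 201426_s_at, a mean of 13344 ± 746 (SD, n = 3 arrays) and at least 124.6 times the threshold. This was the highest multiple of the threshold among all member probe sets. Such multiples depend on the probes too, so they do not order genes by transcript level. The other VIM probe set, 1555938_x_at, gave 56.4, 42.0 and 27.2 and was under the threshold on each array, and VIM too was not above background where most probe sets had to be. SYNM, the gene of synemin, which joins filaments of other types, gave 252.9, 260.4 and 179.3 and was above background.

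NES, the gene of nestin of neural progenitors, lay across the threshold. Its probe set 218678_at gave 104.9, 141.8 and 20.8 and 229346_at gave 9.10, 114.6 and 18.1. The 24 h array exceeded its threshold on both and the low-seeded 48 h array on the first alone. Without the high-seeded 48 h array NES was above background. DES, the gene of desmin in muscle, stayed between 4.33 and 47.7 on both probe sets. GFAP, the filament of astrocytes, stayed between 5.599 and 19.1 on its 3 probe sets.

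**Figure D2:**
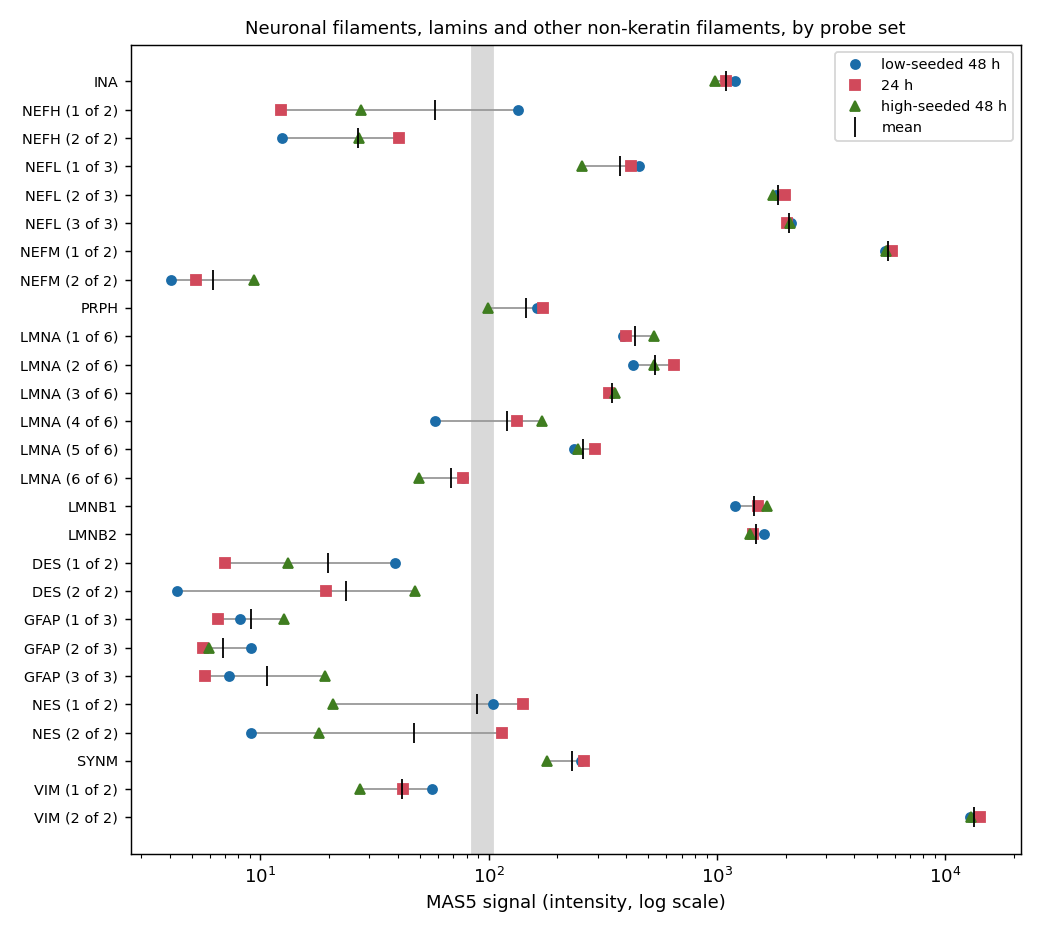
MAS5 signals (horizontal axis, intensity, log scale) of every probe set of the neuronal filaments, the lamins and the other non-keratin genes. Symbols mark the 3 cultures and ticks the mean over them, with the thresholds of the arrays as a grey band from 84.4 to 104.1. NEFM, NEFL, INA, LMNB1, LMNB2 and VIM each have a probe set far to the right of the band, whereas PRPH reaches into it and NES crosses it.

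The 5 keratin genes above background were KRT18, KRT10, KRT8, KRT7 and KRT222. Of the simple epithelial keratins, 3 of 5 were above background. KRT18, a type I chain, gave 2673, 3189 and 2847, a mean of 2903 ± 263 (SD, n = 3 arrays) and at least 27.3 times the threshold. KRT8, its type II partner, gave 185.8, 178.6 and 239.8, or 2.07, 2.12 and 2.30 times the threshold. Each has a single probe set here, of the kind marked _x_at. Both genes are known for many processed pseudogenes, so neither signal can be assigned to the gene with certainty.

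KRT7, a type II keratin of simple and ductal epithelia, was above background on 1 of 4 probe sets. That probe set, 1558393_at, gave 147.9, 161.3 and 155.4. The other 3 ranged from 3.49 to 72.5 over the arrays, and all stayed under the threshold. KRT19, the smallest keratin, gave 7.41, 2.96 and 10.1 on 1 probe set and 5.72, 21.0 and 10.1 on the other. KRT20, a keratin of intestinal and urothelial cells, gave 4.13, 3.57 and 81.6, below the threshold on each array.

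KRT10, the type I keratin of the upper epidermis, was above background on all 3 probe sets. They gave 2820, 3558 and 2639 for 207023_x_at, 3209, 3575 and 3291 for 210633_x_at, and 2988, 3768 and 3241 for 213287_s_at. The 24 h culture was highest on each of them. KRT1 and KRT2, the type II chains that pair with KRT10 in epidermis, were not above background. KRT1 gave 4.52, 30.8 and 23.8, and KRT2 gave 5.16, 17.8 and 5.03. Both were named as partners of KRT10 after their values were seen.

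KRT222, a keratin-like gene of the type I cluster, gave 136.6, 127.1 and 188.0 on 1 probe set and 27.1, 63.5 and 22.8 on the other. Its call rests on 1.51 times the threshold at the lowest, and the 99th percentile as threshold removed it.

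The remaining 39 keratin genes were not above background, and 36 of them exceeded the threshold on no array. Of the keratins in the set, these 39 included all 12 of the hair and all 6 of the inner root sheath of the hair follicle. They also included 19 of the 21 stratified and other keratins in the set. KRT9, of palm and sole epidermis, gave 75.6, 136.8 and 63.6 and exceeded it only in the 24 h culture. KRT15, of basal epidermal cells, gave 93.2, 14.9 and 15.0 and exceeded it only in the low-seeded 48 h culture. KRT38, a hair keratin, gave 26.4, 45.1 and 116.5 and exceeded it only in the high-seeded 48 h culture. The basal pair KRT5 and KRT14 was not above background either: KRT5 gave 10.1, 57.6 and 68.8, and KRT14 gave 4.02, 8.41 and 31.1 (named after their values were seen). By chain type, 3 of 24 type I and 2 of 20 type II genes were above background.

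**Figure D3:**
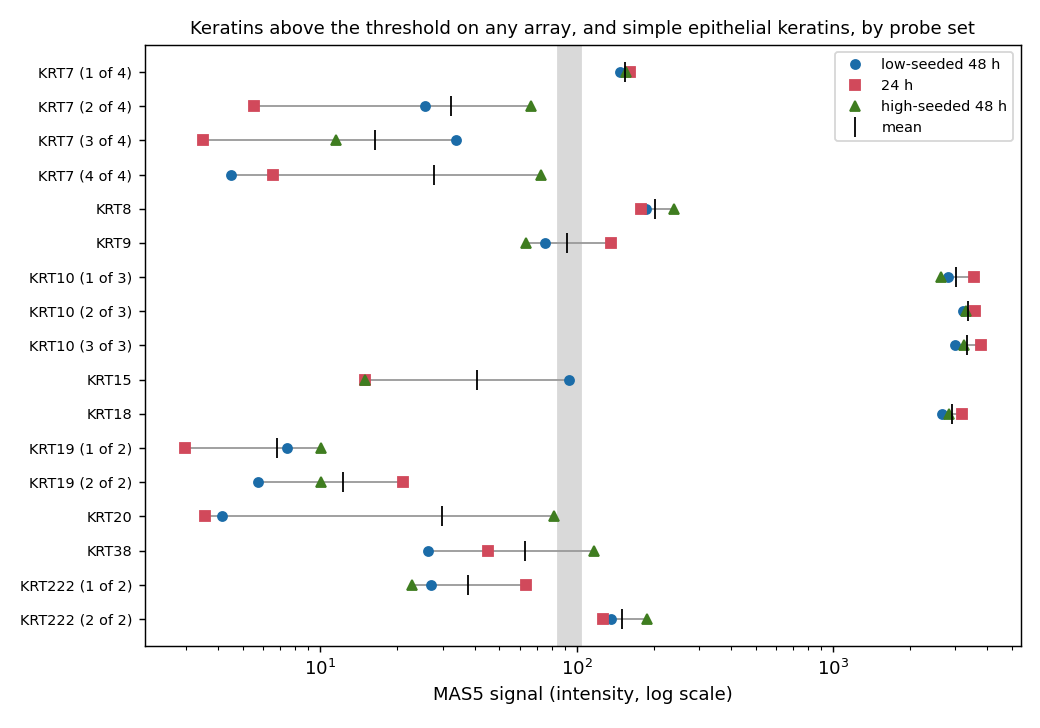
MAS5 signals (horizontal axis, intensity, log scale) of the keratins above the threshold on any array and of the simple epithelial keratins, 1 line per probe set. Symbols mark the 3 cultures and ticks the mean over them, with the thresholds of the arrays as a grey band. KRT10 and KRT18 lie between 2639 and 3768 on every array, whereas 1 probe set each of KRT7, KRT8 and KRT222 lies just above the band.

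In the GRCh38.p14 annotation KRT8 and KRT18 are direct neighbors on chromosome 12, with no protein-coding gene between them. KRT18 was the only type I member there. The other 23 type I members lie on chromosome 17, KRT10 and KRT222 among them, and all 20 type II members on chromosome 12. Upstream sequence (RefSeq, GRCh38.p14) was found for 37 of the 57 genes (64.9%), under the 80% needed to compare such a property over the set, so no such comparison was made. The 100 bases before the annotated start are shown for a neuronal filament gene, a lamin gene and a keratin gene above background, and for a keratin gene that was not, to let the sequences be read beside the signals. Capitals mark CG dinucleotides and the motif TATAAA. They lie at chr10:103277038-103277137 on the + strand for INA, chr19:2456960-2457059 on the - strand for LMNB2, chr17:40822615-40822714 on the - strand for KRT10 and chr17:40885243-40885342 on the - strand for KRT20.
INA: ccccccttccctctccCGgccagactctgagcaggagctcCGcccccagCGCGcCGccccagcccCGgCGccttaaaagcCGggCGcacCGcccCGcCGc
LMNB2: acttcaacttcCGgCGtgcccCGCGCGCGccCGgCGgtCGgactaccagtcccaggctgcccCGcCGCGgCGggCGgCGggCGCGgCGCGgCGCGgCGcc
KRT10: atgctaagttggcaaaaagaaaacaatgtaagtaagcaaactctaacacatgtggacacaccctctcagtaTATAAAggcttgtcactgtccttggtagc
KRT20: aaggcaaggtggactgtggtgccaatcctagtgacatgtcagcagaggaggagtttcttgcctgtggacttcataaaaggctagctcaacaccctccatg

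These windows held 12 CG dinucleotides for INA, 22 for LMNB2 and 0 each for KRT10 and KRT20. TATAAA was found in the window of KRT10 alone. On either strand of the 250 bases before the start, 11.1% of all 27305 promoters held this motif. The genes shown were picked as examples and do not stand for their classes, and whether these features go with the calls was not tested. A match describes these letters and shows nothing about binding.

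Probe sets above background varied far less between arrays than the others. Part of this follows from the definition, since a low signal on any array moves a probe set to the other group. The cultures also differ, so this spread is not measurement error alone. Over the 20 member probe sets above background the median SD between arrays was 0.16 on the log2 scale, and over the other 63 it was 1.04. The same measure was 0.15 and 0.92 over the array. Of the 20 probe sets, 10 were at least 10 times the threshold on all arrays and 3 were under 2 times on at least 1 array, those of KRT7, KRT222 and SYNM. The genes above background that have only probe sets able to share sequence with other transcripts were 6 (INA, KRT10, KRT18, KRT8, LMNB2 and VIM), and near-identical copies could contribute to their signals.

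To see whether filament genes differed with the state of the culture, the array at 24 h was compared with the pair at 48 h. No member was called (limma with Benjamini-Hochberg adjustment on log2(signal + 19.0), 22 member probe sets tested among 23662 with mean log2 signals over that of the mean threshold, 92.8). Over all tested probe sets 52 (0.22%) were called, 42 higher and 10 lower at 24 h, and 7 higher and 7 lower after scaling to equal medians. At an unadjusted p under 0.05 there were 2 of the 22 members, both of KRT10, against 8.96% of all tested. The KRT10 probe set 207023_x_at was higher at 24 h by 0.38 on the log2 scale (standard error 0.11, limma adjusted p = 0.223). The adjusted p was higher under every alternative. The 3 KRT10 probe sets share a transcript and are not independent.

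The other large differences had wider errors than that of KRT10. The LMNA probe set 203411_s_at gave 0.43 (standard error 0.23, limma adjusted p = 0.618) and PRPH gave 0.39 (standard error 0.45, limma adjusted p = 0.878). In the other direction KRT222 gave -0.30 (standard error 0.43, limma adjusted p = 0.916), KRT8 gave -0.22 (standard error 0.37, limma adjusted p = 0.928) and the LMNA probe set 1554600_s_at gave -0.17 (standard error 0.26, limma adjusted p = 0.918). Single 48 h arrays decided the size of these differences. Without the low-seeded or without the high-seeded 48 h array, PRPH gave 0.70 or 0.07, KRT222 gave -0.50 or -0.09, KRT8 gave -0.39 or -0.05, LMNA 203411_s_at gave 0.28 or 0.58 and LMNA 1554600_s_at gave -0.39 or 0.04, the last with a change of sign. Of the 22 differences, 16 were positive, with a median of 0.14 against 0.01 over all tested probe sets. These differences are not independent, since several share a gene and all use the same 24 h array. With no filter on low signals 42 of 83 were positive, with a median of 0.01 against -0.03 over all probe sets. The spread behind the p-values came from the pair of 48 h arrays, which differ in cells seeded, and from a trend shared across probe sets. The single 24 h array added nothing to it, so the p-values do not measure the spread between replicate cultures. Residual degrees of freedom numbered 1 per probe set, with a single array at 24 h, and harvest time and seeding cannot be told apart, so a difference that missed the threshold does not show equal levels.

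**Figure D4:**
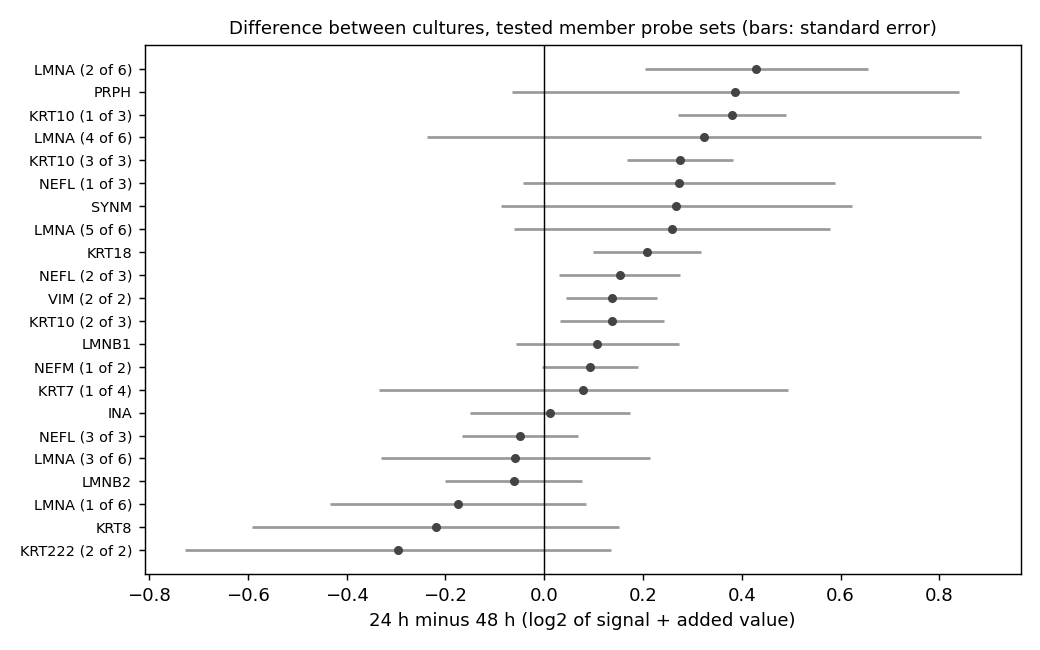
Difference between the 24 h culture and the mean of both 48 h cultures (horizontal axis, log2 of the signal plus the added value) for the 22 tested member probe sets; points are limma estimates and bars their standard errors. The differences run from -0.30 (KRT222) to 0.43 (LMNA), and none passed the adjusted test.

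Of 18 genes of nuclear lamina partners, 16 were above background (88.9%, against 52.6% of all genes). LBR, the lamin B receptor, gave 10845, 10395 and 9181, and EMD, the gene of emerin, gave 1220, 1347 and 1054. The exceptions were the nesprin genes SYNE1, with 20.05, 94.0 and 34.0, and SYNE3, with 78.1, 52.7 and 75.6. Of the enzymes that process lamin precursors, 4 of 5 were above background (80%), among them ZMPSTE24, the prelamin A protease, with 6839, 6433 and 6423. FNTB, a farnesyltransferase subunit, was not, with 30.2, 39.9 and 35.5 on the only probe set listed for it alone. The missed call of FNTB rests on that probe set and does not show that the transcript was absent.

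Of the desmosome, hemidesmosome and cytolinker genes, among them genes that anchor keratin filaments, 10 of 19 were above background. This was 52.6%, the same as the share over all genes, 52.6%. DSP, the gene of desmoplakin, gave 3065, 2923 and 3453, JUP, the gene of plakoglobin, gave 282.4, 303.1 and 332.4, and the plakophilin genes PKP2 and PKP4 were also above background. PKP1, PKP3, DSC1 and DSG1 were not. The desmosomal cadherin genes were split: DSG2, with 6553, 6524 and 6973, DSC2, with 1398, 1572 and 1415, and DSC3, with 920.3, 775.0 and 757.9, were above background, whereas DSC1, DSG1, DSG3 and DSG4 were not. None of the 12 genes of the cornified envelope was above background, FLG, IVL and LORICRIN included. Outside the members, the filament-like genes IFFO1 and IFFO2 were above background and the lens filament genes BFSP1 and BFSP2 were not. BFSP1 gave 186.3, 211.6 and 91.7 and fell under the threshold only in the high-seeded 48 h culture, at 0.88 times. The call of IFFO2, with 136.5 in that culture, was lost with the 99th percentile as the threshold, 141.6 there.

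Markers of the cell types known for each class gave a mixed picture. Of 12 epithelial markers 3 were above background. EPCAM gave 134.8, 130.6 and 111.2, and its call was lost with chemosensory receptors alone as reference, where the threshold of the high-seeded 48 h array was 117.6. CDH1, the gene of E-cadherin, gave 156.2, 216.6 and 176.8, and GRHL1, a transcription factor of epithelia, gave 375.4, 284.4 and 323.8. Of 15 neuronal markers 6 were above background, among them TUBB3, the neuronal tubulin, with 9143, 9647 and 9117, and GAP43, MAPT and SYT1. STMN2, ELAVL3, ELAVL4 and MAP2 were not. The TUBB3 signals came from a probe set of the kind marked _x_at, which can share sequence with other transcripts. With probe sets that can share sequence left out, 3 neuronal markers were above background. The call of GAP43, with 105.6 in the low-seeded 48 h culture, was lost with the 99th percentile as the threshold, 133.1 there. Of 10 mesenchymal markers 8 were above background, and SNAI1 and MMP2 were not. LBR, EMD, ZMPSTE24, DSG2, DSG3, DSG4, DSC2, DSC3, FLG, IVL and LORICRIN were named after their values were seen. The share over all genes was 52.6%, and no list was tested against it.

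**Figure D5:**
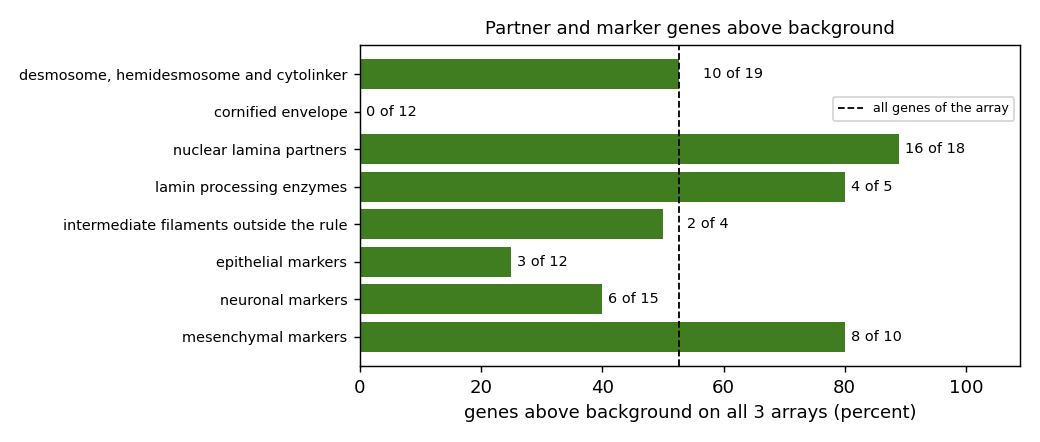
Share of genes above background on all 3 arrays in lists of filament partners and of cell type markers (bars, in percent), with the counts beside them; the dashed line is the share over all genes of the array (52.6%). Lamina partners reach 16 of 18 and cornified envelope genes 0 of 12.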

How the data were processed

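Total RNA from 3 HEK-293T cultures was labeled and hybridized by the authors, with 1 Affymetrix U133 Plus 2.0 array per culture. The deposited values are MAS5 signals (intensity, linear scale; GCOS 1.0 in the submitters' processing notes), and their mean after trimming 2% at each end was 500.1 on each array. The absent/present calls were not used here.

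Gene names came from the platform annotation, with symbols brought up to GRCh38.p14 through gene IDs. No member symbol changed. Of 54675 probe sets, 41097 list 1 gene, 1801 several and 11777 none; 62 control probe sets were left out. The reference held 127 chemosensory receptor probe sets and 156 of tissue-restricted genes; 2 of the 283 were themselves above background. The comparison of cultures used limma 3.58.1 (R 4.3.3) with a mean-variance trend. The added value, 19.0, is the median reference signal, and changes of low signals are understated. Scripts were tested on simulated data. No pair of arrays held identical values. The number of arrays limits the precision.

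Named were all members that are no keratins, the keratins above background, the simple epithelial keratins, keratins above the threshold on 1 or 2 arrays, and the 3 largest differences between cultures in each direction. Of each partner or marker list the smaller side was named where it held at most 5 genes, otherwise up to 4 genes on each side. The members and lists were chosen with earlier results of these data known. Alternatives were the 90th and 99th percentile, parts of the reference, 2 arrays sufficing, quantile normalization, no probe sets that can share sequence, most probe sets of a gene, each array left out, and for the cultures an added value of 1, no filter, equal medians and no trend.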

Additional observations from a re-analysis of the deposited data

How the results depend on the processing

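Of the 57 genes, 3 (LMNB1, NEFL and SYNM) were above background and 37 were not under the main setting and all 11 alternatives run, while 17 changed their call or lost all their probe sets under at least 1. Leaving out probe sets that can share sequence had the most effect: 7 probe sets and 6 genes remained above background, with 2 keratins, 1 lamin and 1 of the mesenchymal, muscle, glial and progenitor filaments. It left 11 genes without any probe set, 6 of them above background otherwise and 5 not, and LMNA lost its call on the probe sets that remained. It also left 6 desmosome and cytolinker genes, 1 epithelial marker, 3 neuronal markers and 2 lamin processing enzymes. With most probe sets of a gene required, 9 genes were above background, with 3 keratins, 2 neuronal filaments and 1 mesenchymal, muscle, glial or progenitor gene; KRT7, KRT222, NEFM and VIM lost their calls. In the comparison of cultures, calls over the array numbered 52, and 104 with no filter on low signals (81 higher and 23 lower at 24 h), 14 after scaling to equal medians and 0 without the trend of limma (1364 at an unadjusted p under 0.05). No member was called under any of these. Leaving out a 48 h array leaves 1 array against 1, which gives differences without a test. Below the threshold, signals varied too much between arrays to order genes or cultures.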

Other observations

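Probe sets of related transcripts that the choice of members left out gave the following values, in the order of the cultures above. KRT10-AS1, a transcript antisense to KRT10, gave 2086, 2002 and 2112 and was above background. A probe set listed for SUPT20H and DES together gave 151.6, 86.9 and 172.1 and was above background, although both probe sets of DES alone were not. The pseudogene KRT8P12 gave 72.4, 31.9 and 93.7 on 1 probe set and 3.36, 79.3 and 63.6 on the other, and was not above background. KRT19P2 and KRT17P5, pseudogenes of other keratins, were not above background either.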
